A study of Saccharomyces cerevisiae with 12 samples.

Results

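The genes described here encode the aminoacyl-tRNA synthetases of the budding yeast Saccharomyces cerevisiae and were chosen by gene name. Each of the 33 listed genes had 1 probe set on the array, so all were followed, out of 5449 genes named on it. Of them 19 encode enzymes of the cytosol and 14 enzymes of the mitochondrion. The gene of the cytosolic prolyl enzyme, YHR020W, was not among them and is described with other genes below. Transcript levels had been measured on Affymetrix arrays in 4 groups of 3 biological replicates, 12 arrays in all. The strains were CEN.PK 113-7D and YSBN2, and each was grown with air both as a batch culture and as a chemostat limited by glucose. The labels give CEN.PK 113-7D as prototrophic and of mating type a. They give YSBN2 as a prototrophic FY strain with both ho alleles disrupted, ho::Ble/ho::HphMX4, a notation used for diploids, although neither ploidy nor mating type is stated for it. Every culture ran at 30 °C and pH 5 in 4 L reactors. Batch medium held 30 g/L glucose at the start, whereas the chemostats took in feed with 7.5 g/L glucose plus 0.3 g/L ethanol, diluting them by 0.1 per h. Sugar level, feeding, dilution and ethanol thus differed between the cultures together, and an effect of growth rate cannot be told apart from theirs.

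An aminoacyl-tRNA synthetase joins an amino acid to the tRNA that carries it to the ribosome. The cytosol of yeast uses such an enzyme for each amino acid. Yeast translates in 2 compartments, the cytosol and the mitochondrion, and the mitochondrial ribosomes make a small number of respiratory chain and ATP synthase subunits. For most amino acids separate nuclear genes encode the cytosolic and the mitochondrial enzyme, while ALA1, GRS1, HTS1 and VAS1 each supply both compartments from 1 gene. Uncharged tRNA, which accumulates when charging falls behind, activates the kinase Gcn2, and this raises translation of the transcription factor Gcn4.

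All values are log2 signals as deposited, and a difference of 1 is a 2-fold change. Differences were tested with limma over all 5716 probe sets, and "called" means a Benjamini-Hochberg adjusted p under 0.05. Levels of different genes are not set against each other, since each probe set has its own brightness. No member lay near the floor of the arrays: the lowest member value was 8.17, and the lowest value of any probe set 1.69. The probe set of HO, the gene disrupted in YSBN2, read 11.46 to 12.62 in the CEN.PK 113-7D arrays and 2.11 to 2.39 in those of YSBN2. Replicates correlated at 0.961 or above across probe sets. The third YSBN2 batch array was unlike its replicates: 196 probe sets in it lay 2 log2 units or more from their mean in the other two, against 2 to 77 in the other arrays. Of the members, MSF1 and MSW1 were over 1 log2 unit higher in it than in the other two.

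In CEN.PK 113-7D, transcripts of all 19 cytosolic synthetase genes fell in the chemostat relative to batch, and for each of them the 3 chemostat arrays lay below the 3 batch arrays. Among all probe sets 22.2% were called lower and 28.6% lay wholly lower without overlap. The median difference of the cytosolic enzymes was -0.68, against 0.09 over all probe sets, and single genes ran from -1.92 to -0.26. The 14 mitochondrial enzymes had a median of -0.14, with 2 called higher and 0 called lower (1 lower at an unadjusted p under 0.05), where 33.9% of all probe sets were called higher and 56.1% in either direction. In a bulk culture, fewer cells with a transcript and less transcript per cell cannot be told apart.

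**Figure D1:**
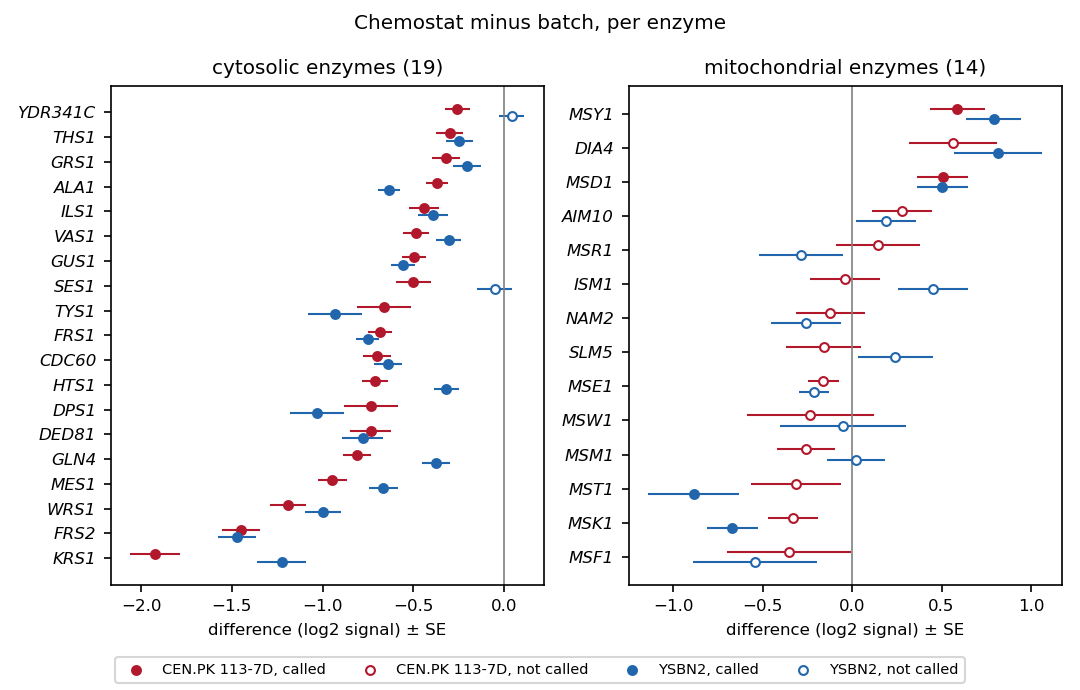
Chemostat minus batch difference of each enzyme gene (log2 signal, point ± limma standard error) in CEN.PK 113-7D (red) and YSBN2 (blue), with filled points called at an adjusted p under 0.05. All 19 cytosolic genes lie left of 0 in CEN.PK 113-7D and 18 of 19 in YSBN2, while the 14 mitochondrial genes lie on both sides.

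KRS1, for the cytosolic lysyl-tRNA synthetase, stood at 11.92, 11.62 and 11.34 in batch cultures of CEN.PK 113-7D, against 9.71, 9.73 and 9.68 in its chemostats. The groups did not overlap, and the fall of 1.92 ± 0.14 (SE, adjusted p = 2.6e-06), or 3.79-fold, was the largest among the members. FRS2, for 1 subunit of the cytosolic phenylalanyl-tRNA synthetase, read 13.82, 14.03 and 14.01 in batch, against 12.37, 12.65 and 12.49 in the chemostat. It fell by 1.45 ± 0.11 (adjusted p = 2.9e-06). FRS1, for the other subunit of that enzyme, read 14.27, 14.23 and 14.27 in batch, against 13.58, 13.50 and 13.64 in the chemostat. Its fall of 0.68 ± 0.06 was smaller: the 95% interval of the FRS2 difference (-1.69 to -1.21) did not overlap that of FRS1 (-0.83 to -0.54).

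WRS1, for the tryptophanyl enzyme, read 13.43, 13.27 and 13.32 in batch, against 12.24, 12.12 and 12.09 in the chemostat. Its difference was -1.19 ± 0.10 (adjusted p = 6.2e-06). Thus 3 of the 19 cytosolic genes fell by at least 1 log2 unit. MES1, for the methionyl enzyme, fell by 0.95 ± 0.08, and GLN4, for the glutaminyl enzyme, by 0.81 ± 0.08. GUS1, for the glutamyl enzyme, which binds the cofactor Arc1 together with the MES1 product, fell by 0.50 ± 0.07. The smallest falls were those of YDR341C, for the arginyl enzyme (-0.26 ± 0.07, adjusted p = 0.01), and THS1, for the threonyl enzyme (-0.30 ± 0.07, adjusted p = 0.0066). These 2 calls were lost with cyclic loess normalization (adjusted p = 0.1 and 0.061), where 17 of 19 cytosolic genes were called.

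The dual genes ALA1, GRS1, HTS1 and VAS1, which serve both compartments, all fell in CEN.PK 113-7D. HTS1, for the histidyl enzyme, read 14.51, 14.46 and 14.47 in batch, against 13.83, 13.70 and 13.78 in the chemostat, a fall of 0.71 ± 0.07 (adjusted p = 2.2e-05). VAS1 (valyl) fell by 0.48 ± 0.07, ALA1 (alanyl) by 0.37 ± 0.06 and GRS1 (glycyl) by 0.32 ± 0.08. Their median of -0.43 compares with -0.70 for the other 15 genes of the cytosolic class, a difference that was not tested.

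MSY1 and MSD1 were the mitochondrial genes called higher in CEN.PK 113-7D. MSY1, for the mitochondrial tyrosyl enzyme, read 10.54, 10.36 and 10.49 in batch, against 11.08, 11.02 and 11.05 in the chemostat. The groups did not overlap, and the rise was 0.59 ± 0.15 (adjusted p = 0.0091). MSD1, for the mitochondrial aspartyl enzyme, read 10.78, 10.87 and 10.47 in batch, against 11.16, 11.21 and 11.26 in the chemostat, a rise of 0.51 ± 0.14 (adjusted p = 0.013). Both calls depended on the scaling of the arrays. With a common array median the rises were 0.30 and 0.22 (adjusted p = 0.12 and 0.21), and the median of all probe sets moved from 0.09 to -0.19.

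The other 12 mitochondrial genes were not called in CEN.PK 113-7D. MSF1, for the phenylalanyl enzyme, had the lowest difference (-0.35, 95% interval -1.13 to 0.43), and DIA4, for a probable mitochondrial seryl enzyme, was positive at 0.56 (0.01 to 1.12, adjusted p = 0.078). Arrays of the same replicate number deviated together in this strain. In a fit of its 6 arrays with the replicate number as a block, 4 mitochondrial genes were called higher (MSY1, MSD1, DIA4 and AIM10) and 3 lower (MSF1, MST1 and MSK1), and all 19 cytosolic genes stayed called. That fit called 65.4% of all probe sets, 38.3% higher and 27.1% lower, so the share of mitochondrial genes called, 7 of 14, was below that of all probe sets. With a common array median, quantile normalization or cyclic loess, 0 mitochondrial genes were higher and 4, 9 and 6 were lower, where 37.5%, 37.8% and 26.4% of all probe sets were lower. The direction of the mitochondrial enzymes against batch is therefore not settled, whereas the cytosolic median ran only from -0.97 to -0.61 over these scalings.

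In YSBN2, 17 of the 19 cytosolic genes fell in the chemostat, and their 3 chemostat arrays lay below the 3 batch arrays in each case. Over all probe sets 21.9% were called lower in this strain and 25.5% lay wholly lower. The cytosolic median was -0.63, against 0.06 over all probe sets. Of the 14 mitochondrial genes 3 rose and 2 fell, with a median of -0.01, where 30.6% of all probe sets were called higher and 52.6% in either direction. This split also moved with the scaling: 2 were higher and 3 lower with a common array median, 1 and 7 with quantile normalization, and 3 and 5 with cyclic loess. Over all probe sets 25.8% were called higher and 27.4% lower with a common array median. These shares were 25% and 31% with quantile normalization, and 28.3% and 25.2% with cyclic loess. The mitochondrial median ran from -0.40 to -0.15 over these scalings. In both strains 17 cytosolic genes were called lower. Of all probe sets at most the 21.9% of YSBN2 can have been called lower in both. The 2 strains contribute separate arrays but share 1 estimate of the spread per probe set, so their calls are not independent.

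FRS2 had the largest fall in YSBN2. It read 13.82, 13.89 and 13.99 in batch, against 12.35, 12.33 and 12.61 in the chemostat, a difference of -1.47 ± 0.11 (adjusted p = 3.4e-06), next to -0.75 ± 0.06 for FRS1. KRS1 read 14.69, 14.51 and 14.64 in batch, against 13.22, 13.40 and 13.54 in the chemostat. It fell by 1.23 ± 0.14 (adjusted p = 6.1e-05), or 2.34-fold. DPS1, for the cytosolic aspartyl enzyme, read 14.25, 14.24 and 14.37 in batch, against 13.10, 13.30 and 13.37 in the chemostat, a fall of 1.03 ± 0.15 (adjusted p = 3e-04). WRS1 fell by 1.00 ± 0.10, TYS1 (tyrosyl) by 0.93 ± 0.15 and DED81 (asparaginyl) by 0.78 ± 0.11.

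YDR341C and SES1 were the cytosolic genes not called in YSBN2. YDR341C read 14.46, 14.35 and 14.55 in batch, against 14.42, 14.57 and 14.49 in the chemostat, with a difference of 0.04 (95% interval -0.11 to 0.20). SES1, for the seryl enzyme, read 14.39, 14.38 and 14.69 in batch, against 14.43, 14.50 and 14.36 in the chemostat, with a difference of -0.05 (-0.27 to 0.17). In both genes the cultures overlapped. The dual genes ALA1 (-0.63 ± 0.06), HTS1 (-0.32 ± 0.07), VAS1 (-0.31 ± 0.07) and GRS1 (-0.20 ± 0.08) fell. The GRS1 call (adjusted p = 0.049) was lost when any 1 of 9 arrays was left out (adjusted p from 0.061 to 0.16). The THS1 fall of 0.25 ± 0.07 was lost without the third YSBN2 chemostat array (adjusted p = 0.061).

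MSY1 rose again in YSBN2. It read 9.47, 9.82 and 9.96 in batch, against 10.27, 10.54 and 10.82 in the chemostat, a rise of 0.79 ± 0.15 (adjusted p = 0.0019) that kept its call in all 24 alternatives run. MSD1 rose by 0.51 ± 0.14 (adjusted p = 0.014), from 10.53, 10.39 and 10.36 to 10.68, 10.90 and 11.21, and was not called with a common array median (0.37, adjusted p = 0.054). DIA4 read 9.64, 9.42 and 9.09 in batch, against 9.75, 10.55 and 10.30 in the chemostat, a rise of 0.82 ± 0.25 (adjusted p = 0.019). That call was lost without the third batch array, the second chemostat array or the third chemostat array (adjusted p from 0.057 to 0.074).

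MSK1, for the mitochondrial lysyl enzyme, whose precursor also takes part in the import of a lysine tRNA, went down in YSBN2. It read 12.12, 12.18 and 12.21 in batch, against 11.31, 11.52 and 11.67 in the chemostat, a fall of 0.67 ± 0.14 (adjusted p = 0.0033). MST1, for the mitochondrial threonyl enzyme, read 9.29, 9.20 and 10.01 in batch, against 8.17, 9.11 and 8.56 in the chemostat. Its fall of 0.89 ± 0.25 (adjusted p = 0.015) was not called without the first YSBN2 chemostat array (-0.67, adjusted p = 0.053). In that array the mitochondrial members had a median 0.44 below the other two, and the cytosolic members 0.07 below.

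**Figure D2:**
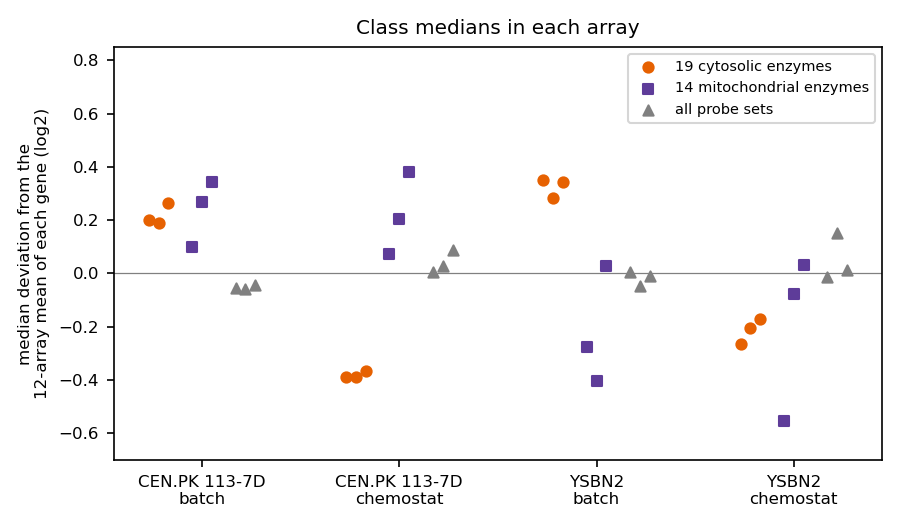
Median deviation of the cytosolic (circles) and mitochondrial (squares) enzymes and of all probe sets (triangles) from each gene's mean over 12 arrays (log2), 1 symbol per array and class. The cytosolic median lies between 0.19 and 0.35 in the batch arrays and between -0.39 and -0.17 in the chemostat arrays, while the mitochondrial median is more spread within groups.

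Within groups the cytosolic genes were also the steadier class. The median SD between replicates was 0.08 for the cytosolic genes, 0.25 for the mitochondrial genes and 0.22 for all probe sets. MSW1, for the mitochondrial tryptophanyl enzyme, had the largest SD among the members, 0.46. The mitochondrial probe sets read 8.17 to 12.25, and the cytosolic ones read 12.01 to 15.05 apart from KRS1 in CEN.PK 113-7D. The part of signal level in the wider spread was not tested.

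For 13 amino acids the members held both a cytosolic and a mitochondrial enzyme. They gave 14 pairs because the cytosolic phenylalanyl enzyme has 2 subunits. Proline was left unpaired, since YHR020W, for the cytosolic prolyl enzyme, was measured but is not a member. In CEN.PK 113-7D the chemostat difference of the cytosolic gene lay below that of the mitochondrial gene in 13 pairs, with a median gap of -0.63. In YSBN2 it did so in 12 pairs, with a median gap of -0.77. These gaps show unequal change within the same arrays on the deposited scale and carry no test of their own. Their size was not computed under the other scalings. The genes that lost their call with cyclic loess in CEN.PK 113-7D were MSY1 (then 0.37), MSD1 (0.35), THS1 (-0.19) and YDR341C (-0.16). Each was then nearer to no change than on the deposited scale. Taken array by array, the cytosolic minus mitochondrial signal lay wholly lower in the chemostat arrays in 10 pairs in CEN.PK 113-7D. In YSBN2 it did so in 9 pairs, and in the remaining pairs of each strain the cultures overlapped.

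The tyrosine and aspartate pairs moved apart in both strains. TYS1 fell by 0.66 ± 0.15 and MSY1 rose by 0.59 ± 0.15 in CEN.PK 113-7D, a gap of -1.25, and the gap was -1.72 in YSBN2. DPS1 fell by 0.73 ± 0.15 and MSD1 rose by 0.51 ± 0.14 in CEN.PK 113-7D, a gap of -1.24, and the gap was -1.53 in YSBN2. The threonine pair did not follow this order. THS1 and MST1 differed from batch by -0.30 and -0.31 in CEN.PK 113-7D, and by -0.25 and -0.89 in YSBN2. The arginine genes YDR341C and MSR1 gave a gap of -0.41 in CEN.PK 113-7D and of 0.33 in YSBN2.

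**Figure D3:**
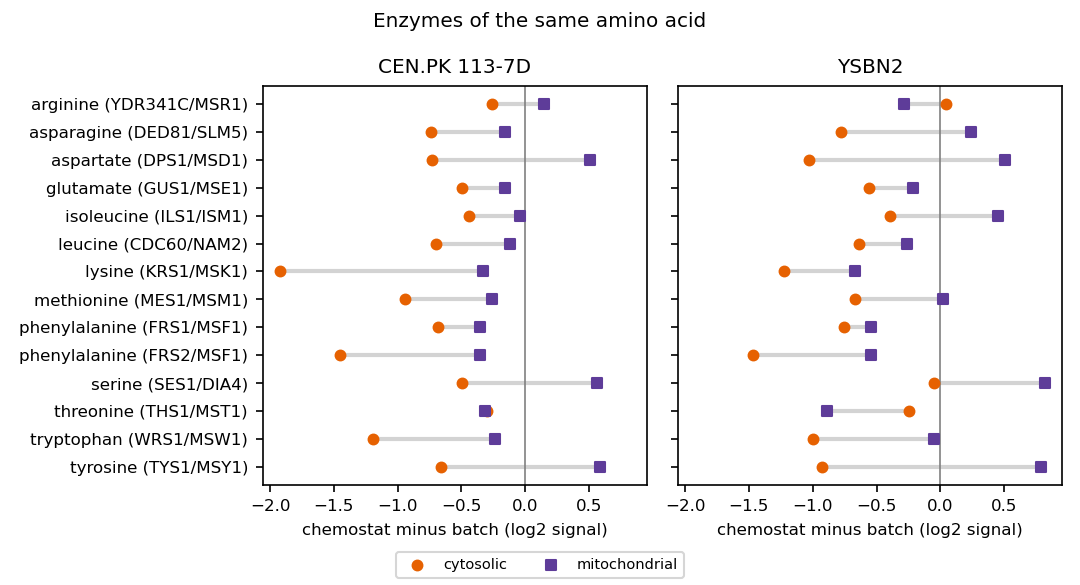
Chemostat minus batch difference (log2 signal) of the cytosolic (circles) and mitochondrial (squares) enzyme gene of the same amino acid, joined by a line, in each strain. The circle lies left of the square in 13 of 14 pairs in CEN.PK 113-7D and in 12 of 14 in YSBN2.

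The response of 3 cytosolic genes to the chemostat differed between the strains in the interaction test, and for each the fall was smaller in YSBN2. Over all probe sets 15.4% were called in this test, 4.34% higher and 11.1% lower, while the 3 genes, all higher, are 15.8% of the 19. In either direction the share is close to that of all probe sets. GLN4 read 13.50, 13.31 and 13.51 in YSBN2 batch and 13.06, 13.14 and 13.00 in YSBN2 chemostat. In CEN.PK 113-7D it went from 13.50, 13.33 and 13.50 to 12.60, 12.60 and 12.69, so the batch levels coincided and the chemostat levels did not overlap. The difference of the 2 effects was 0.44 ± 0.11 (adjusted p = 0.025).

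HTS1 differed by 0.39 ± 0.10 (adjusted p = 0.026) and KRS1 by 0.70 ± 0.19 (adjusted p = 0.039). None of the 3 calls was firm. Leaving out 1 array at a time ended the GLN4 call in 7 cases, the HTS1 call in 8 and the KRS1 call in 9, with adjusted p up to 0.067, 0.073 and 0.09. Without the third YSBN2 batch array 7 cytosolic genes were called instead, in a fit that called 25.9% of all probe sets. For GLN4, HTS1, KRS1 and MES1 the fall was smaller in YSBN2, and for ALA1 it was larger (difference of effects -0.29, adjusted p = 0.035). SES1 and YDR341C, also called, did not fall in YSBN2 in that fit (0.05, adjusted p = 0.66, and 0.09, adjusted p = 0.27). By limma 0 of the 14 mitochondrial genes were called, and 0 had an unadjusted p under 0.05.

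Between the strains, KRS1 stood far from the other members. In batch it was 2.99 ± 0.14 higher in YSBN2 (adjusted p = 4.6e-07), and in the chemostat 3.68 ± 0.14 higher (adjusted p = 1.3e-07). These are 7.92-fold and 12.8-fold, and the 6 arrays of each strain, given above, did not overlap. Only 118 of the 5716 probe sets (2.06%) were further above CEN.PK 113-7D in batch, and 29 (0.507%) in the chemostat. The next largest rise among the members was 0.25 for ALA1 in batch and 0.46 for SES1 in the chemostat.

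The genes next to KRS1 on its chromosome were looked at after its values were seen, in the gene order of the S288C reference, the lineage of the FY strains. EHD3, the neighbour on one side, which encodes a mitochondrial enzyme of valine breakdown, read 2.32 to 2.98 in the 6 CEN.PK 113-7D arrays and 8.07 to 10.52 in the 6 YSBN2 arrays. ENA5, the neighbour on the other side, for a sodium pump whose probe set may also read its close relatives ENA1 and ENA2, read 2.92 to 3.28 and 12.26 to 13.20. Both were at the floor in CEN.PK 113-7D and not in YSBN2. Further out the differences were smaller. ARO3, for an enzyme of aromatic amino acid synthesis, overlapped between the strains and differed by 0.26 (adjusted p = 0.32) in batch and -0.15 (adjusted p = 0.59) in the chemostat. RSM10, for a mitochondrial ribosomal protein, differed by -0.32 (adjusted p = 0.21) in batch and -0.56 (adjusted p = 0.044) in the chemostat. A lower KRS1 transcript level and weaker binding of a differing CEN.PK 113-7D sequence to the probes cannot be told apart here. The size of the KRS1 fall in CEN.PK 113-7D and its difference of effects rest on the same probe set. What weaker binding would do to them was not tested.

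**Figure D4:**
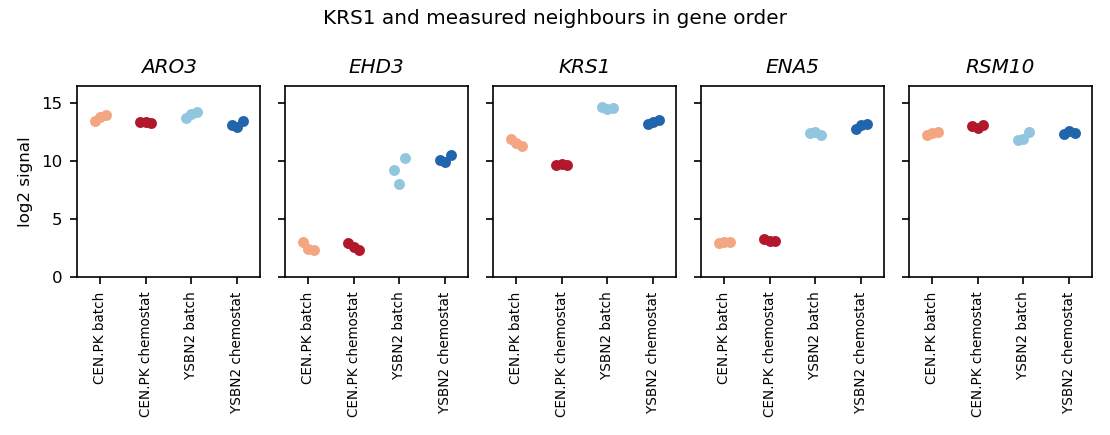
Log2 signal of KRS1 and of its measured neighbours, in gene order, with 1 point per array in the 4 groups of 3. EHD3 and ENA5 lie near the floor of the arrays in CEN.PK 113-7D, KRS1 is lower in that strain in both cultures, and ARO3 and RSM10 are far from the floor in both strains.

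Apart from KRS1, differences between the strains in cytosolic genes were small. In batch 3 genes were higher in YSBN2 (KRS1, ALA1 and THS1) and 2 lower (HTS1 and YDR341C), and over all probe sets 29.1% were called in either direction. The median difference was 0.07, and it turned to -0.03 with a common array median. ALA1 differed by 0.25 ± 0.06, THS1 by 0.23 ± 0.07, HTS1 by -0.21 ± 0.07 and YDR341C by -0.25 ± 0.07. With a common array median ALA1 and THS1 differed by 0.15 and 0.13 and were not called (adjusted p = 0.24 and 0.38). Leaving out 1 array ended the HTS1 call in 11 cases, the THS1 call in 10 and the YDR341C call in 4, and the fit of only the 6 batch arrays called KRS1 alone.

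In the chemostat 5 of the 19 cytosolic members were higher in YSBN2 and 0 lower (0 also at an unadjusted p under 0.05, by limma). Over all probe sets 12.9% were called higher and 28.2% in either direction. The cytosolic median was 0.16, and it stayed positive under each scaling (0.16 to 0.22). SES1 read 14.10, 13.87 and 13.96 in CEN.PK 113-7D and 14.43, 14.50 and 14.36 in YSBN2, a difference of 0.46 ± 0.10 (adjusted p = 0.0073). GLN4, with the values given above, was 0.44 ± 0.08 higher (adjusted p = 0.0031). THS1 was 0.28 ± 0.07 higher and CDC60, for the leucyl enzyme that also serves as a leucine sensor for the TORC1 kinase, 0.25 ± 0.08 higher. Leaving out 1 array ended the THS1 call in 4 cases and the CDC60 call in 7. YHR020W, for the cytosolic prolyl enzyme but not a member, read lower in YSBN2 in the chemostat, as given below.

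Mitochondrial enzyme genes tended the other way. In batch 13 of 14 had a negative difference (YSBN2 minus CEN.PK 113-7D), with a median of -0.45, and 3 were called lower and 0 higher (6 and 0 at an unadjusted p under 0.05). Over all probe sets 10.5% were called lower and the median was 0.02. In the chemostat 13 of 14 were again negative, with a median of -0.45, and 4 were called lower and 0 higher (7 and 0 unadjusted), where 15.3% of all probe sets were called lower. The medians ran from -0.55 to -0.52 in batch and from -0.46 to -0.39 in the chemostat under the 3 other scalings. The strain comparison in batch, that in the chemostat and the culture comparisons share arrays, so their values are not independent of each other.

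MSE1, for the mitochondrial glutamyl enzyme, was lower in YSBN2 in both cultures. In batch it read 11.08, 10.93 and 11.10 in CEN.PK 113-7D and 10.48, 10.54 and 10.56 in YSBN2, a difference of -0.51 ± 0.08 (adjusted p = 0.0019). In the chemostat it read 10.89, 10.89 and 10.84 against 10.16, 10.48 and 10.30, a difference of -0.56 ± 0.08 (adjusted p = 0.0014). MSY1 was also lower in both, by -0.71 ± 0.15 in batch (adjusted p = 0.0075) and -0.51 ± 0.15 in the chemostat (adjusted p = 0.036). The second of these was lost in 6 of 12 cases of leaving out 1 array (adjusted p up to 0.12).

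SLM5, for the mitochondrial asparaginyl enzyme, was lower in YSBN2 batch, at 9.17, 8.68 and 9.17 against 9.57, 9.99 and 9.97. The difference was -0.84 ± 0.21 (adjusted p = 0.016), a call lost in 3 cases of leaving out 1 array (adjusted p from 0.053 to 0.058). MSR1, for the mitochondrial arginyl enzyme, was lower in the YSBN2 chemostat, at 9.41, 9.82 and 9.92 against 10.31, 10.91 and 10.92. The groups did not overlap, and the level in YSBN2 was 2.00-fold lower (SE of the log2 difference 0.23, adjusted p = 0.012). MST1 was lower there by -0.84 ± 0.25 (adjusted p = 0.034), a call lost in 6 cases of leaving out 1 array.

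NAM2, MSM1, ISM1, MSF1, MSW1 and AIM10 were called in none of the 5 comparisons. NAM2, for the mitochondrial leucyl enzyme, which also takes part in the splicing of mitochondrial introns, had differences from -0.29 to -0.12 in culture and strain comparisons. MSM1, for the methionyl enzyme, was the mitochondrial member with a positive strain difference in the chemostat (0.10, 95% interval -0.26 to 0.46). ISM1, for the isoleucyl enzyme, gave -0.04 for culture in CEN.PK 113-7D and 0.45 in YSBN2 (0.01 to 0.89, adjusted p = 0.08), next to -0.44 and -0.39 for its cytosolic counterpart ILS1, both called.

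The third YSBN2 batch array bore on the batch comparison. In it the mitochondrial members had a median 0.28 above the other two YSBN2 batch arrays. Without it calls rose over all probe sets, from 10.5% to 19.5% called lower. Of the mitochondrial genes 7 were then called lower instead of 3: MSE1, MSF1, MSR1, MSW1, MSY1, SLM5 and AIM10, the last for a putative prolyl enzyme. MSW1 read 8.50, 8.88 and 9.77 in YSBN2 batch against 9.89, 10.12 and 9.96 in CEN.PK 113-7D. Its difference was -0.94 (adjusted p = 0.077) with that array and -1.30 (adjusted p = 0.0092) without it.

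**Figure D5:**
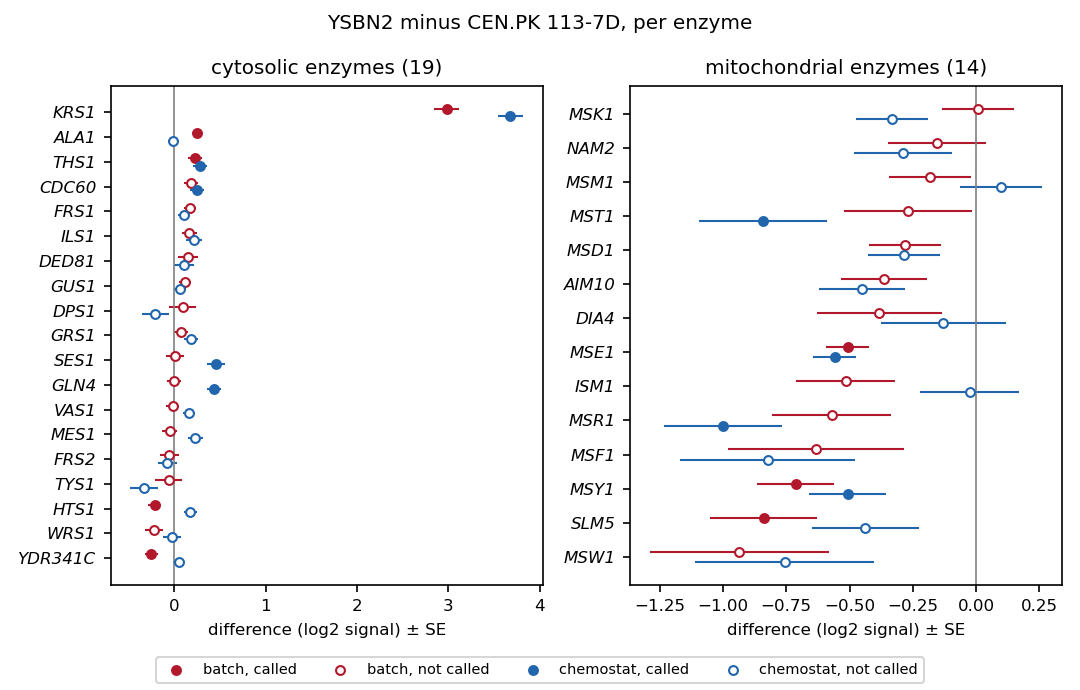
YSBN2 minus CEN.PK 113-7D difference of each enzyme gene (log2 signal, point ± limma standard error) in batch (red) and in the chemostat (blue), with filled points called at an adjusted p under 0.05. KRS1 lies near 3 and 3.7 while the other cytosolic genes lie within 0.5 of 0, and 13 of 14 mitochondrial genes lie left of 0 in each culture.

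In each of the 14 pairs the strain difference of the cytosolic gene lay above that of the mitochondrial gene, in batch (median gap 0.60) and in the chemostat (median gap 0.60). Taken array by array, the cytosolic minus mitochondrial signal was wholly higher in YSBN2 in only 5 pairs in batch and 8 in the chemostat. In the remaining pairs the strains overlapped. The smallest gaps were 0.13 for methionine in batch and 0.08 for aspartate in the chemostat. The lysine pair had the largest gaps, 2.98 and 4.01, which rest on the KRS1 probe set.

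Among 10 other measured genes of aminoacylation, ARC1 and YHR020W followed the cytosolic enzymes in the culture comparisons. ARC1, the cofactor of the methionyl and glutamyl enzymes, read 13.98, 14.19 and 14.17 in CEN.PK 113-7D batch and 13.05, 13.31 and 13.33 in the chemostat. It fell by 0.88 ± 0.09 (adjusted p = 2.9e-05), and by 0.84 ± 0.09 (adjusted p = 5e-05) in YSBN2. YHR020W, for the cytosolic prolyl enzyme, fell by 0.67 ± 0.08 in CEN.PK 113-7D and by 0.86 ± 0.08 in YSBN2. Between the strains it went against the cytosolic members called in the chemostat. There it read 13.50, 13.42 and 13.36 in CEN.PK 113-7D, against 12.97, 13.08 and 13.04 in YSBN2, without overlap. In the list 2 genes were called higher and 4 lower in CEN.PK 113-7D, and 1 higher and 2 lower in YSBN2. These are 60% and 30% of the list, next to 56.1% and 52.6% of all probe sets called in either direction.

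PET112, for a subunit of the amidotransferase that makes mitochondrial glutaminyl-tRNA from glutamyl-tRNA, rose in both strains. It read 7.96, 8.28 and 8.42 in CEN.PK 113-7D batch and 9.16, 9.30 and 9.49 in the chemostat, a rise of 1.10 ± 0.33 (adjusted p = 0.017). In YSBN2 it went from 6.30, 6.23 and 6.52 to 6.61, 8.14 and 7.73, a rise of 1.14 ± 0.33 (adjusted p = 0.015). The first call was lost without the first batch or the third chemostat array of its strain (adjusted p = 0.059 and 0.056), and the second without the second or the third chemostat array (adjusted p = 0.051 and 0.052). It was lower in YSBN2 by -1.87 ± 0.33 in batch (adjusted p = 0.0024) and by -1.82 ± 0.33 in the chemostat (adjusted p = 0.0033). The other 2 subunit genes, HER2 and GTF1, were not called in any comparison. GRS2, a second glycyl-tRNA synthetase gene, rose by 1.24 ± 0.24 in CEN.PK 113-7D (adjusted p = 0.0019) and gave 0.25 in YSBN2 (adjusted p = 0.41), a contrast of effects that was not called (-0.99, adjusted p = 0.09). FMT1 and PTH1 had means of 1.93 and 2.15 and lay at the floor of the arrays, apart from PTH1 in the second YSBN2 chemostat array.

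Of 8 genes around the sensing of uncharged tRNA, 1 was called higher and 5 lower in CEN.PK 113-7D. The one that rose was GCN4 itself, from 15.33, 15.25 and 15.18 to 15.82, 15.74 and 15.75 (0.52 ± 0.07, adjusted p = 2e-04), and in YSBN2 by 0.26 ± 0.07 (adjusted p = 0.013). Transcript levels do not report the translational control of GCN4. GCN20, a partner in Gcn2 activation, differed from batch by -0.76 ± 0.09 in CEN.PK 113-7D and by -0.65 ± 0.09 in YSBN2, both called. YIH1, for an inhibitor of Gcn2 activation, fell 6.21-fold (SE of the log2 difference 0.69, adjusted p = 0.0095) and 10.5-fold (adjusted p = 0.0026), with the first chemostat array lowest in both strains (6.34 and 5.77). Without that array the falls were 3.59-fold in CEN.PK 113-7D (adjusted p = 0.021) and 6.88-fold in YSBN2 (adjusted p = 0.0089). GCN2 was not called in either culture comparison. In YSBN2 1 gene of this list was called higher and 3 lower. The called share was 75% in CEN.PK 113-7D and 50% in YSBN2, next to 56.1% and 52.6% of all probe sets. SUI2, among the 5 lower in CEN.PK 113-7D, lost that call when any 1 array of that strain or of the YSBN2 chemostat was left out (adjusted p from 0.055 to 0.096). GCN1, among the 3 lower in YSBN2, lost its call when any 1 YSBN2 chemostat array was left out (adjusted p from 0.053 to 0.11).

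The 17 genes of tRNA maturation and export were divided. In CEN.PK 113-7D 3 were called higher and 5 lower, and in YSBN2 4 higher and 2 lower. These are 47.1% and 35.3% of the list, below the 56.1% and 52.6% of all probe sets. MAF1, the repressor of RNA polymerase III, which transcribes the tRNA genes, rose by 1.40 ± 0.12 (adjusted p = 9.7e-06) in CEN.PK 113-7D and by 1.43 ± 0.12 (adjusted p = 1e-05) in YSBN2. MSS1, for a modifier of mitochondrial tRNAs, rose by 1.64 ± 0.15 and 1.10 ± 0.15 in the same order. PUS1, for a pseudouridine synthase of tRNA, gave -1.25 ± 0.26 and -2.20 ± 0.26, both called. TRZ1, which trims tRNA 3′ ends, fell by 1.41 ± 0.19 in CEN.PK 113-7D (adjusted p = 0.00018) and gave -0.21 in YSBN2 (adjusted p = 0.37). It was the gene of this list whose effects were called different between the strains (1.19 ± 0.27, adjusted p = 0.016).

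Among 7 mitochondrial translation factors 2 were called higher and 1 lower in each strain. That share, 42.9%, was below the 56.1% and 52.6% of all probe sets. GUF1, a mitochondrial elongation factor homologue, rose by 0.66 ± 0.14 and 0.53 ± 0.14, and TUF1, the mitochondrial elongation factor Tu, gave -0.29 ± 0.08 and -0.28 ± 0.08, both called. The TUF1 calls were lost without the second CEN.PK 113-7D batch array (adjusted p = 0.053) and without the first YSBN2 chemostat array (adjusted p = 0.069). Besides GUF1, the gene called higher was MRF1 in CEN.PK 113-7D (0.30) and MEF2 in YSBN2 (1.13). Each of these calls was lost in several fits that left out 1 array (adjusted p up to 0.094 for MRF1 and 0.14 for MEF2). Between the strains 3 of the 7 were lower in YSBN2 batch and 4 in the YSBN2 chemostat, with none called higher and medians of -0.42 and -0.41. Over all probe sets 10.5% and 15.3% were called lower in these comparisons. MRF1, the mitochondrial release factor, read 11.64, 11.46 and 11.61 in CEN.PK 113-7D batch and 10.96, 10.74 and 10.71 in YSBN2 batch. It differed by -0.77 ± 0.10 (adjusted p = 4e-04), and by -1.03 ± 0.10 (adjusted p = 9.3e-05) in the chemostat.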

How the data were processed

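The deposited values are 1 column of log2 signals per array. They were read as log2 because they run from 1.69 to 16.2; the base is not stated in the labels. R 2.6, affy and RMA are named per the submitters' processing notes, with settings not given in the sources used here. Array medians of the authors' values still differed, from 11.02 to 11.37.

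Members, lists and tests were chosen with earlier results of these data known. Probe sets were named through GEO's platform annotation and matched to RefSeq R64, 1 probe set per member. Of 44 further listed genes 42 were measured. Named were all members, HO and the listed genes. The neighbours of KRS1 were added after its values were seen.

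limma 3.58.1 in R 4.3.3 fitted 1 mean per group over 12 arrays (8 residual and 1.34 prior degrees of freedom), 5 contrasts, eBayes and two-sided p-values adjusted over 5716 probe sets. No filter was applied. Errors are standard errors. The fit was also run on simulated arrays with known changes and independent noise. Those lack the deviations shared between arrays that are given below, so they cannot show how such deviations bear on the calls. Classes carry no test. The number of arrays limits the precision. Nothing in the labels ties a replicate number to a day or batch. Deviations of same-numbered CEN.PK 113-7D batch and chemostat arrays correlated at 0.5, 0.28 and 0.31, so that pairing was taken from the data alone. In replicate order, the values were 0.09, -0.17 and 0.05 between the YSBN2 cultures, and 0.16, 0 and 0.15 between batch arrays of both strains. Chemostat arrays of both strains gave 0.6, -0.1 and 0.2, so those numbered 1 deviated together. No pairing was read from these group pairs, each of which held a value of 0 or below. The replicate block was fitted for them only as an alternative. Sequences of the members were not used here.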

Additional observations from a re-analysis of the deposited data

Results flagged for a closer look

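For 3 cytosolic enzymes the chemostat effect differed between the strains by the interaction test, with a smaller fall in YSBN2 in each case. These are 15.8% of the 19 cytosolic members, next to 15.4% of all probe sets called in that test in either direction and 4.34% in the same direction. The differences of the effects were 0.44 for GLN4, 0.39 for HTS1 and 0.70 for KRS1 (limma, adjusted p = 0.025, 0.026 and 0.039). All 3 differences were positive in every alternative fitted, and 0 of the 3 kept the call in all of them.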

How the results depend on the processing

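Of 63 called differences of single members, 35 kept their call and direction in all alternatives fitted, 28 lost the call in at least 1, and 0 changed sign. By comparison, 17 of 21 were kept for culture in CEN.PK 113-7D, 13 of 22 for culture in YSBN2, 1 of 8 for strain in batch, 4 of 9 for strain in the chemostat, and 0 of 3 for the difference of effects. The array-weights fit stopped before full convergence.

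The numbers of called members that moved by over 1.5 times were these. For mitochondrial members and culture in CEN.PK 113-7D (2 called), a common array median gave 4, quantile normalization 9, cyclic loess 6, array weights 4, only the arrays compared 4, the replicate block within those arrays 7, and an adjusted p under 0.01 gave 1. For culture in YSBN2 (5), quantile normalization gave 8 (1 higher, 7 lower), cyclic loess 8 (3 higher, 5 lower), only the arrays compared 3, the replicate block within them 2, and the stricter p 2. The cytosolic count there (17) was 11 with the replicate block within the arrays compared. For strain in batch, the cytosolic count (5) was 3 without the 25% dimmest probe sets, 9 with array weights, 3 with the replicate block, 1 with only the arrays compared, 1 with the replicate block within them, and 1 with the stricter p. The mitochondrial count (3) was 6 with a common median, 5 with quantile normalization, 5 with cyclic loess, 9 with array weights, 5 with the replicate block, and 0 with the replicate block within the arrays compared. For strain in the chemostat, the cytosolic count (5) was 10 with quantile normalization, 11 with array weights, 3 with the replicate block within the arrays compared, and 3 with the stricter p. The mitochondrial count (4) was 8 with quantile normalization, 8 with array weights, and 1 with the stricter p. For the difference of effects, the cytosolic count (3) was 5 with a common median, 6 with quantile normalization, 6 with values under 6 raised to 6, 6 with trend and robust settings, 7 with array weights, and 0 with the stricter p. The mitochondrial count (0) was 1 with quantile normalization. The causes were not tested.

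Leaving out each array in turn, the cytosolic counts ran from 19 to 19 and from 15 to 17 for culture in CEN.PK 113-7D and YSBN2, from 2 to 7 and from 3 to 9 for strain in batch and chemostat, and from 0 to 7 for the difference of effects. The mitochondrial counts ran from 2 to 3, from 4 to 6, from 2 to 7, from 2 to 6 and from 0 to 0. The pairs with the cytosolic difference below the mitochondrial one ran from 13 to 14 and from 11 to 12 for culture, and those above from 14 to 14 and from 13 to 14 for strain. For the difference of effects (8 pairs above) they ran from 4 to 10. Same-numbered arrays were read as paired only for culture in CEN.PK 113-7D, but the block was run as an alternative for the other comparisons too. Some calls counted as lost were lost only with the block within the arrays compared. Among these were GLN4, HTS1, ILS1 and VAS1 for culture in YSBN2, and MSE1 and MSY1 for strain in batch. For culture in CEN.PK 113-7D the block in the 12-array fit gave 19 cytosolic and 3 mitochondrial calls. The number of arrays limits what can be called.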
